A study of Mus musculus with 4 samples.

Results

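The genes described here encode subunits of respiratory complex I, the NADH dehydrogenase of the mitochondrial inner membrane, and the question was which of them carry Deaf1 ChIP-seq peaks at their ends in C2C12 cells. The list held 35 nuclear genes, taken by gene name with earlier results of these data known, out of 21627 protein-coding genes on the autosomes and the X chromosome. C2C12 is a mouse myoblast line, and per the labels the crosslinked cells were myocytes, while the description of the series speaks of myoblasts that had been differentiated. Chromatin precipitated with an antibody to Deaf1 made up 2 samples and input chromatin the other 2, and the labels name no treatment, genotype or second condition. The peak lists of ChIP replicates 1 and 2 were used, while the inputs, and a control IgG that the protocol names, were not analysed here; whether the replicates were separate cultures is not stated, so differences between them may be technical.

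Complex I takes electrons from NADH and passes them to ubiquinone, and it pumps protons across the inner membrane. Its matrix arm binds NADH, carries a flavin and a chain of iron-sulfur clusters, and ends at the site of ubiquinone reduction. Its membrane arm holds the proton pumps, whose core subunits are encoded in mitochondrial DNA, so that all nuclear-encoded subunits of that arm are accessory ones. Muscle fibres depend on this enzyme for oxidative ATP synthesis. Deaf1 is a transcription factor whose SAND domain binds DNA at half-sites with the letters TTCG.

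A gene was counted as occupied when a summit of each replicate lay no farther than 1 kb from one and the same end of its RefSeq span. The span covers all RefSeq models of a gene, so either end, where transcription begins or where it finishes, can count. Each peak's fold is the authors' own ratio of signal at the summit over background. The lists were not scaled to each other, so folds are ranked within a list, and values of both replicates, replicate 1 first, are set side by side as a description. Replicate 1 had 65606 peaks and replicate 2 had 26503, and the number of reads behind them is unknown. The rule was met by 51.6% of all protein-coding genes, and without a control peak list Deaf1 binding and signal common to promoters cannot be told apart.

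To show the DNA next to the strongest peaks and at genes without any, the 250 bases before the annotated start are given for 5 subunits. They come from RefSeq (build GRCm38.p6) and read 5′ to 3′ on the strand of the gene, with every TTCG or its reverse complement CGAA in capitals. The first 3 belong to the occupied subunits with the highest fold ranks at their own starts, Ndufv2 at chr17:66101560-66101809 (minus strand), Ndufa10 at chr1:92473759-92474008 (minus strand) and Ndufb2 at chr6:39592315-39592564 (plus strand). The other 2 belong to the 4 subunits with no summit within 1 kb of an end, Ndufa6 at chr15:82354292-82354541 (minus strand) and Ndufa7 at chr17:33824322-33824571 (plus strand).
Ndufv2: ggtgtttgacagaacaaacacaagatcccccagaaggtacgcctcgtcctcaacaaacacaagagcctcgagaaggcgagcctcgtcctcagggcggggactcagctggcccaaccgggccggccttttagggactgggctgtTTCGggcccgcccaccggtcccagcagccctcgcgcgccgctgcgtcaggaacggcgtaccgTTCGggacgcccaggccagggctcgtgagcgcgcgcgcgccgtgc
Ndufa10: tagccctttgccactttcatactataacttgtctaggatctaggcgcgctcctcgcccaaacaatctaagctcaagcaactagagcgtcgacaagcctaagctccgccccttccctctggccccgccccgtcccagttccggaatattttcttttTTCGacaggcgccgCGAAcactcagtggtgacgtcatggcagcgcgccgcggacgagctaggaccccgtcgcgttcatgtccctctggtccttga
Ndufb2: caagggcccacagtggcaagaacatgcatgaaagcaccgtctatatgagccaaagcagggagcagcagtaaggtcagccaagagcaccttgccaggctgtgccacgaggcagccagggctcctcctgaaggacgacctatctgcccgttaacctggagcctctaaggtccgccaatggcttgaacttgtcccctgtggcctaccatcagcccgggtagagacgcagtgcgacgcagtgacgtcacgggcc
Ndufa6: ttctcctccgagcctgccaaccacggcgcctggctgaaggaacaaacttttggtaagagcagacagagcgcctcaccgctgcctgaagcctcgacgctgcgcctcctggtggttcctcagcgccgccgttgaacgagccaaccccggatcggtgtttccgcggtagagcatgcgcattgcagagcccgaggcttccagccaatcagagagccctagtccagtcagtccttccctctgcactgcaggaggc
Ndufa7: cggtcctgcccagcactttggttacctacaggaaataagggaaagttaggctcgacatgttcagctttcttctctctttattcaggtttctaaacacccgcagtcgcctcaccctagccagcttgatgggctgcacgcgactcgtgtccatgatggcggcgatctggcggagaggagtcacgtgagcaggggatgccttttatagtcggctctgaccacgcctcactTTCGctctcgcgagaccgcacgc

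Of these 250-base stretches, that of Ndufv2 held 2 half-sites, with first letters 107 and 45 bases before the start, and that of Ndufa10 also held 2, at 95 and 81 bases. The stretch of Ndufb2, an occupied gene, held 0, and so did that of Ndufa6. Ndufa7, which is not occupied, had 1, at 23 bases before the start. A match of these letters is a description and not a binding site.

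Deaf1 peaks stood at the ends of 26 of the 35 complex I subunit genes (74.3%, exact Clopper-Pearson interval 56.7% to 87.5%), against 51.6% of all protein-coding genes. The subunits of the distal membrane arm were occupied without exception (11 of 11, interval 71.5% to 100%). The proximal membrane arm had 8 of 9 (88.9%, interval 51.8% to 99.7%) and the matrix arm 7 of 15 (46.7%, interval 21.3% to 73.4%). By class, 4 of the 6 core subunits on the list and 22 of the 29 accessory subunits were occupied. Each gene was counted in a single arm, Ndufab1 in the distal one. These shares are descriptions of small lists, and no test between the arms was made. The intervals treat genes as independent, and neighbouring genes can share a peak. Because the lists were chosen with earlier results known, the intervals here and below are no test against the share of all genes.

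**Figure D1:**
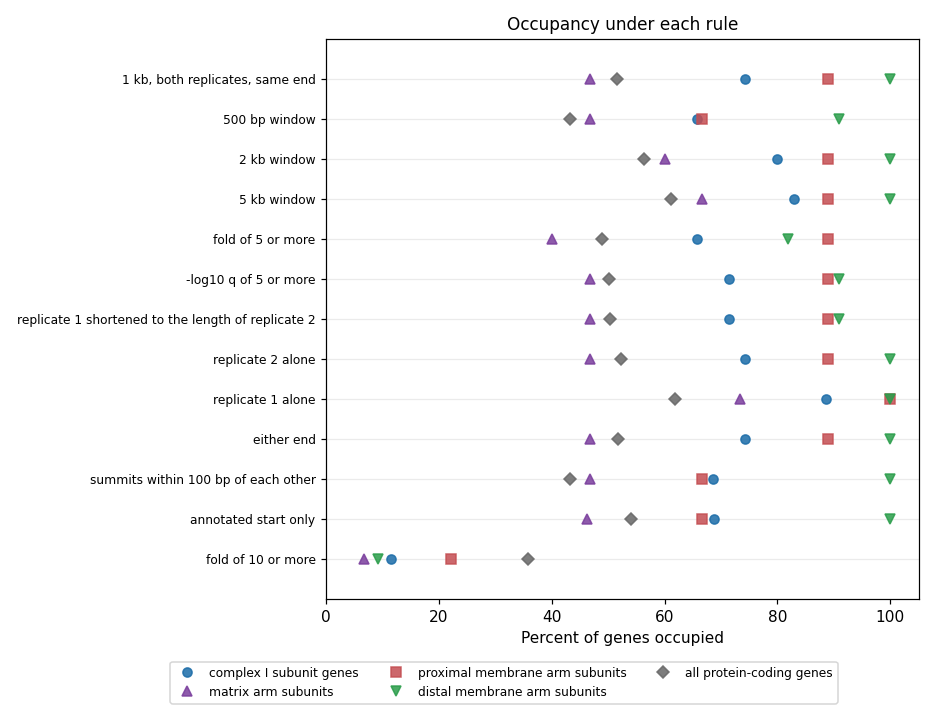
Percent of genes occupied (horizontal axis) under the rule used here and 12 other rules (rows). Points stand for all 35 complex I subunits, for the matrix, proximal and distal arms, and for all protein-coding genes. The distal arm lies at 81.8% or more in every row but the last, where a fold of 10 or more was required and 9.09% remain.

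The share of the matrix arm depended on replicate 2. With the peaks of replicate 1 alone, 31 of 35 subunits had a summit at an end, against 61.8% of all genes, and the matrix arm had 11 of 15. With replicate 2 alone the counts were 26 of 35, against 52.3% of all genes, and 7 of 15 in the matrix arm. The matrix arm's share lay below that of all genes under the rule used here, but above it with replicate 1 alone (73.3%) and with windows of 500 bp (46.7% against 43.2%), 2 kb (60.0% against 56.4%) and 5 kb (66.7% against 61.1%), and with summits within 100 bp of each other (46.7% against 43.3%). Under every other rule it lay below. These were replicate 2 alone, a fold of 5 or more (40.0% against 48.8%) and a −log10 q of 5 or more (46.7% against 50.1%). Also among them were lists of equal length (46.7% against 50.3%), either end (46.7% against 51.8%), annotated starts only (46.2% against 54.0%) and a fold of 10 or more (6.67% against 35.8%). All 11 distal genes were occupied under each single replicate.

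Most occupied subunit genes carried folds below the median of all occupied genes. Over the 26 occupied subunits the median fold was 11.8 in replicate 1 (range 5.94 to 23.7) and 8.05 in replicate 2 (range 4.05 to 28.1), against medians of 16.2 and 14.8 over all 11161 occupied genes. Below the median of all occupied genes lay 18 of the 26 in replicate 1 and 21 of the 26 in replicate 2. When folds of 10 or more were required in both replicates, 4 of 35 subunit genes (11.4%) remained, against 35.8% of all protein-coding genes. These 4 were Ndufv2, Ndufa13, Ndufa10 and Ndufb2.

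**Figure D2:**
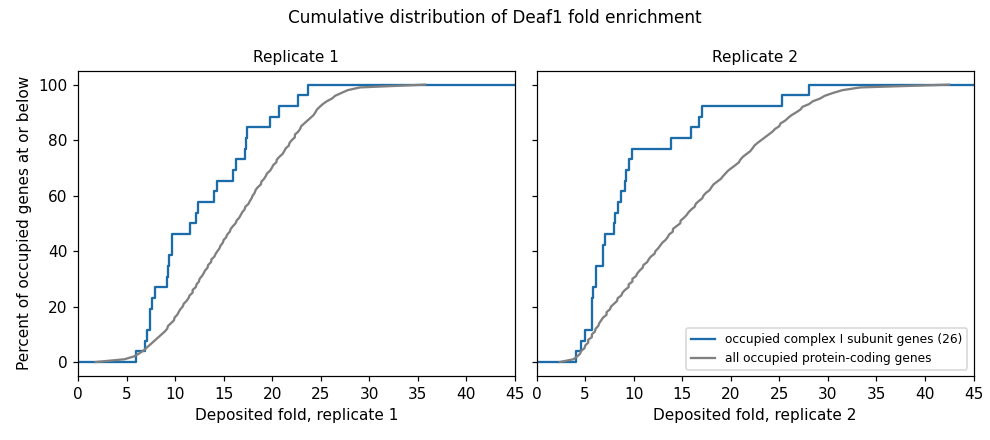
Cumulative percent of genes (vertical axis) against the deposited fold (horizontal axis) in each replicate, for the 26 occupied complex I subunits and for all occupied protein-coding genes. The curve of the subunits lies to the left of that of all genes over most of the range, with medians of 11.8 and 8.05 against 16.2 and 14.8.

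Replicate 1 gave the higher fold at 21 of the 26 occupied subunits (80.8%), against 60.3% of all occupied genes. Counting intervals of the replicates lay apart at 6 subunits. Replicate 1 was above replicate 2 at 4 of them, Ndufa1, Ndufa2, Ndufa8 and Ndufs6, and below it at 2, Ndufab1 and Ndufb9. No such count over all occupied genes is given, and the lists were not scaled to each other, so this is no trait of the subunits. The number of fragments over each summit, recovered from the deposited fold and p, ran from 23 to 86 (median 49.5) in replicate 1 and from 14 to 79 (median 23) in replicate 2. Local background also entered the folds: it was above the lowest value of the list at 14 of 26 subunit summits (53.8%) in each replicate, against 43.3% and 38.2% over all occupied genes. Its part in the lower folds was not tested.

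Among the core subunits of the matrix arm, Ndufv2 had the highest fold. This gene (chromosome 17, 66078795 to 66101559) encodes a flavoprotein subunit with an iron-sulfur cluster. Its summits stood 16 and 28 bp before the annotated start, where 86 fragments gave a fold of 23.7 for replicate 1 (95% counting interval 19.01 to 29.2) and 79 fragments gave 25.3 for replicate 2 (20.1 to 31.4). Both replicates placed it high, at a mean percentile of 86.9 among all occupied genes. No other gene end lay within reach of its peak.

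Ndufs8, a core subunit with iron-sulfur clusters, followed with folds of 17.4 in replicate 1 and 9.48 in replicate 2. Its peak also lay within reach of the finish of Aldh3b1, 17159 and 17122 bp downstream of the Aldh3b1 start. Ndufv1, the subunit that binds NADH and the flavin, had 9.70 and 7.996, 143 and 139 bp downstream of its start. Its backgrounds were high, 6.01 and 3.25 fragments, against the lowest values of 2.13 and 1.64 in the lists. Ndufs3, a core subunit next to the ubiquinone-reducing part, had 7.98 and 4.997 at a peak shared with Kbtbd4. Each of these 3 core genes thus had a lower fold than Ndufv2 in both replicates.

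The other core subunits of the list, Ndufs1 and Ndufs7, were not occupied. Ndufs1, which carries several iron-sulfur clusters (chromosome 1, 63143592 to 63176822), had no peak near its ends: the nearest summits lay 29677 and 29740 bp away, outside the gene. At Ndufs7, which holds the cluster next to ubiquinone (chromosome 10, 80249105 to 80256794), replicate 1 had a summit 239 bp inside the lower end with a fold of 4.73, over a background of 5.34 fragments. Replicate 2 had none there, and its nearest lay 1787 bp inside the higher end with a fold of 4.55. Neither core gene therefore met the rule, 1 for want of any peak and 1 for want of a replicate 2 peak.

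Of the accessory matrix arm subunits 3 of 9 were occupied, namely Ndufs6, Ndufs4 and Ndufa2. Ndufs6, a zinc-binding subunit added late in assembly, had folds of 19.8 and, in replicate 2, 7.01, where the background was 5.42 fragments. It shares the peak with Mrpl36, a gene of the mitochondrial ribosome. Ndufs4, whose loss in mice serves as a model of Leigh syndrome, had 12.1 and 6.07 at 216 and 289 bp downstream of its start. Ndufa2, a subunit with a thioredoxin-like fold on chromosome 18, had 14.0 and 5.69, at a peak shared with the splicing gene Ik. All 3 had a lower fold in replicate 2.

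The unoccupied accessory genes of the matrix arm fell into those with a replicate 1 peak and those with none. Ndufa5 (chromosome 6, 24518662 to 24527690) had a replicate 1 summit 282 bp inside its higher end with 27 fragments and a fold of 8.94. Ndufv3 had one with a fold of 6.18, 94 bp inside its lower end. At Ndufa12, whose product takes the place of the assembly factor Ndufaf2, the replicate 1 fold was 2.38, since 30 fragments stood over a background of 12, and the summit lay 98 bp outside the lower end. None of these 3 had a replicate 2 summit within 1 kb: the nearest lay 1069 bp from an end of Ndufa5, 5126 bp from one of Ndufv3 and 50989 bp from one of Ndufa12.

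Ndufa6, Ndufa7 and Ndufa9 had no summit within 1 kb in either replicate. Ndufa6, a protein of the LYR family (chromosome 15, 82350139 to 82354291), was 12564 and 12522 bp from the nearest summits. Ndufa7 was 4909 and 4888 bp from peaks outside its span. Ndufa9, a nucleotide-binding subunit close to the ubiquinone site, had its nearest replicate 1 summit 3135 bp inside the gene and its nearest replicate 2 summit 81448 bp away. These 3 and Ndufs1 were the only genes of the 35 without a summit at an end in either list.

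**Figure D3:**
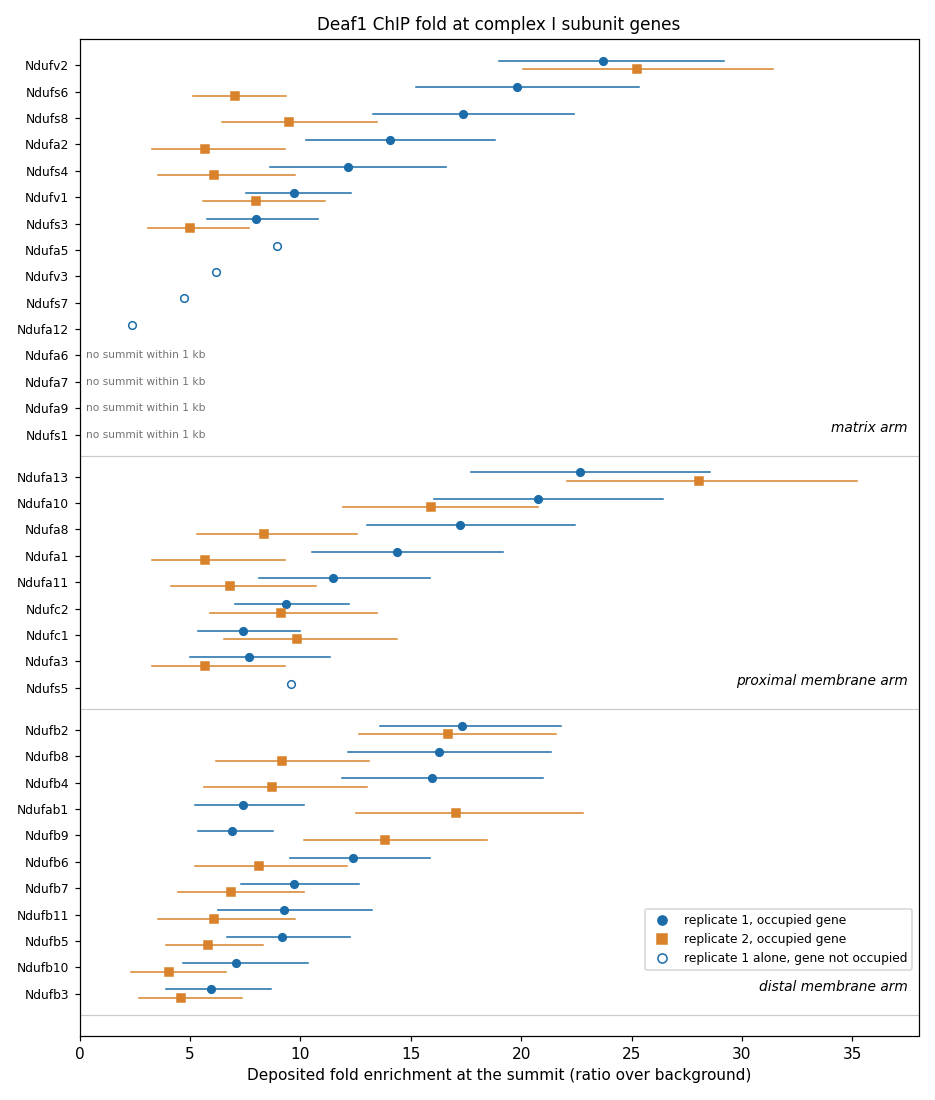
Deposited fold at the summit (horizontal axis) for each of the 35 complex I subunit genes, grouped by arm. Filled circles are replicate 1 and squares replicate 2 at occupied genes, with lines for the 95% counting interval of the summit, and open circles mark a replicate 1 summit where replicate 2 had none. Ndufv2 and Ndufa13 stand apart with folds above 22 in both replicates, against 17.3 or lower in the distal arm.

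In the proximal membrane arm Ndufa13 and Ndufa10 had the highest folds. Ndufa13, also known as GRIM-19 (chromosome 8, 69894163 to 69902558), had 22.7 in replicate 1 and 28.1 in replicate 2, a mean percentile of 88.2. These summits lay 604 and 622 bp outside its span and 1142 and 1160 bp upstream of its annotated start. They stood 978 and 996 bp downstream of the start of Tssk6, a testis kinase gene on the other strand, so that Ndufa13 was not occupied when only annotated starts were counted. Ndufa10, a subunit related to nucleoside kinases (chromosome 1, 92439486 to 92473825), had 20.8 and 15.9 at 89 and 107 bp downstream of its own start, with no neighbour in reach.

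Ndufa8, a subunit on the intermembrane space side, had folds of 17.2 and 8.34 at a peak shared with Morn5. Ndufa1, an X-linked subunit, had 14.4 and 5.69 where it meets Rnf113a1 head to head, with summits 110 bp apart. Ndufa11, a multi-span membrane protein, had 11.5 and 6.83 at 170 and 200 bp downstream of its start, and Vmac lies on the other side. In all 3 the replicate 1 fold was the higher one.

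The 3 remaining occupied genes of the proximal arm had folds under 10. Ndufc2 had 9.34 and 9.10, and Ndufc1 had 7.40 and 9.86 with summits 127 bp apart, the widest gap among the subunits. Ndufa3 had 7.66 and 5.69, but at the finish of the gene, 3446 and 3455 bp from its start. That peak also lay within reach of the finish of Tfpt, 9110 and 9101 bp downstream of the Tfpt start. Ndufs5, an intermembrane space subunit, was the unoccupied one: replicate 1 had a summit 121 bp inside its higher end with 29 fragments and a fold of 9.58, while the nearest replicate 2 summit lay 25594 bp outside it.

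In the distal membrane arm no fold passed 17.3. Ndufb2 was highest in replicate 1, with 17.3 and 16.7 at 170 and 137 bp downstream of its start. Ndufb8 had 16.3 and 9.16, and Ndufb4 had 15.96 and 8.72. None of these 3 shares its peak with a neighbour.

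Ndufab1 and Ndufb9 were higher in replicate 2. Ndufab1, the mitochondrial acyl carrier protein (chromosome 7, 122086815 to 122101848), had 7.39 for replicate 1 (counting interval 5.24 to 10.2), where 36 fragments stood over a background of 4.01, and 17.1 for replicate 2 (12.5 to 22.8), where 44 stood over 1.64. Ndufb9, another LYR protein (chromosome 15, 58933801 to 58939516), had 6.92 with 66 fragments over 8.68 and 13.8 with 44 over 2.25, at an end it shares with Tatdn1. At both genes the local background of replicate 1 was above the lowest value of 2.13.

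The lowest folds among the occupied subunits were those of Ndufb3 and Ndufb10. Ndufb3 had 5.94 and 4.57 upstream of its start, where Fam126b begins on the other strand 59 and 52 bp from the same summits. Ndufb10 had 7.08 and 4.05, with 25 and 14 fragments. A required fold of 5 or more in both lists ended the calls of Ndufb3, Ndufb10 and Ndufs3.

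Ndufb5 had folds of 9.15 and 5.80 beside Mrpl47, a mitochondrial ribosome gene on the other strand. Ndufb7, an intermembrane space subunit, had 9.70 and 6.85 at its start. X-linked Ndufb11 had 9.26 and 6.07, 670 and 655 bp upstream of its start and inside Rbm10, a splicing regulator. All 3 were again higher in replicate 1.

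Ndufb6, Ndufb7 and Ndufa11 were occupied at both ends (3 of 26, or 11.5%, against 8.001% of all occupied genes). At Ndufb6 the start carried folds of 11.1 and 5.997, while the finish carried 12.4 and 8.11 at a peak 78 and 89 bp downstream of the start of Smim27, with Topors also in reach. At the finish of Ndufb7 the folds were 7.66 and 5.05, near Tecr. The finish of Ndufa11 had 6.39 and 6.07. Only the start-side peaks of these genes lay within 250 bp of an annotated start of the subunit itself.

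Several summits lay close to the 1 kb limit. Just inside it were the Ndufb6 finish peak, at 934 and 923 bp, and that of Ndufb7, at 798 and 863 bp. Just outside it, beyond the lower end of Ndufa5, folds of 8.62 and 5.31 stood at 1048 bp (replicate 1) and 1069 bp (replicate 2). A stronger pair of summits stood astride the limit beyond the start of Ndufa11, at 983 bp for replicate 1, where the fold was 21.7, and at 1012 bp for replicate 2, where it was 27.3.

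Most summits stood a little downstream of the annotated start. The reference table gave a start for 32 of the 35 subunits, 24 of them occupied. Among these 24, with the finish peaks of Ndufa3 and Ndufb6 included, the median summit lay 123.5 bp downstream in replicate 1 and 115.5 bp in replicate 2, against 98 and 92 bp over all 8852 occupied genes with a start. Summits 0 to 300 bp downstream made up 15 and 16 of 24 (62.5% and 66.7%), against 49.5% and 47.8%. The summits of the replicates were within 100 bp of each other at 24 of the 26 occupied subunits, against 9368 of all 11161 occupied genes. The median gap at the subunits was 18 bp, with the closest pair taken where a window held several summits. When summits had to lie within 1 kb of an annotated start, 22 of 32 subunits were occupied, against 54.0% of the 17273 genes with a start.

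**Figure D4:**
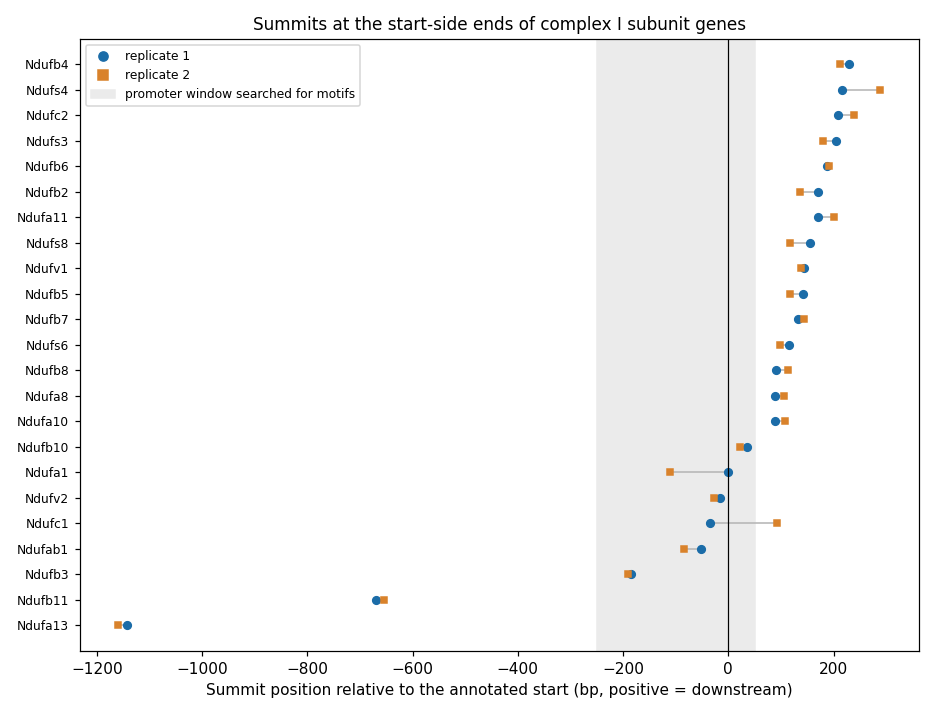
Position of the replicate 1 and replicate 2 summits (circles and squares) relative to the annotated start, in bp, at the start-side ends of 23 occupied complex I subunits (rows). Most pairs lie between 89 and 289 bp downstream, beyond the shaded window of 250 bases before to 50 after the start, and Ndufb11 and Ndufa13 lie 655 bp or more upstream.

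Many peaks at subunit genes also lay within reach of a neighbouring gene. At 14 of 26 occupied subunits (53.8%) the end of another protein-coding gene lay within 1 kb of both summits, against 23.0% of all occupied genes. The neighbours include the splicing genes Rnf113a1, Ik and Rbm10 and the mitochondrial ribosome genes Mrpl36 and Mrpl47. The others were Tfpt, Morn5, Vmac, Tssk6, Fam126b, Topors, Smim27, Tatdn1, Kbtbd4 and Aldh3b1, and no functional theme was tested. Whatever the peaks, 22 of 35 subunit genes (62.9%) had another gene's end within 1 kb of one of their own, against 25.1% of all genes. The subunit genes are also short, with a median span of 7798 bp, against 17330 bp over all genes.

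Occupancy was also counted with and without such a neighbour. Of subunits with such a neighbour 18 of 22 were occupied, against 71.6% of the 5425 genes with one. Of subunits without a neighbour 8 of 13 were occupied, against 44.9% of the 16202 genes without. The part of the neighbours in the occupancy of the subunits was not tested.

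The Deaf1 half-site was present in most promoter windows of the subunit genes. Letters were searched on both strands in windows of 250 bases before to 50 after each start, 34 windows of 32 subunit genes, in which the paired windows of Ndufa5 and of Ndufa7 overlap. TTCG was found in 25 of 34 windows (73.5%), against 49.4% of 21044 windows of all protein-coding genes. Among occupied genes it was in 18 of 24 subunit windows (75%), against 59.1% of 11057 windows, and among unoccupied genes in 7 of 10 subunit windows, against 38.7% of 9987 windows. Subunit windows had a median of 20 CpG dinucleotides, against 13 over all windows and 22 over those of all occupied genes, and TTCG contains a CpG. Most summits lay outside the windows: 6 of 24 in replicate 1 and 5 of 24 in replicate 2 fell within them, against 2329 and 2604 of 8852 over all occupied genes with a start.

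Letters of other factors were counted in the same windows. AAGATGGC, part of the YY1 motif, was in 7 of 34 subunit windows (20.6%), against 3.07% of all windows. These 7 were the windows of Ndufa3, Ndufa9, Ndufb8, Ndufc1, Ndufs4, Ndufs6 and Ndufs7. Of them 5 belong to occupied genes, as do 24 of all 34 subunit windows. Among windows of unoccupied genes these letters were in 2 of 10 for subunits (20%), against 1.97% over all 9987. GCATGCGC, the letters of NRF1, a regulator of respiratory chain genes, was in 3 windows (8.82%, against 3.54%). The ETS family's CCGGAAG was in 4 (11.8%, against 11.7%). GGGCGG, bound by Sp1, was in 16 (47.1%, against 46.7%). The box CCAAT was in 10 (29.4%, against 38.5%). Among windows of occupied genes, the Sp1 letters were in 11 of 24 for subunits (45.8%), against 66.7% over all 11057. In those windows the shares were 20.8% against 4.06% for YY1, 8.33% against 5.16% for NRF1, 16.7% against 15.8% for ETS and 33.3% against 36.1% for CCAAT. Where they overlap, the YY1 letters can share 2 letters with a Deaf1 half-site, the Sp1, NRF1 and CCAAT letters 1 and the ETS letters 0.

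Genes that assemble complex I and genes of the other electron-carrying complexes were counted under the same rule. Of 16 complex I assembly factor genes 13 were occupied (81.2%, exact interval 54.4% to 96.0%), against 51.6% of all protein-coding genes. Their median folds were 12.1 and 8.90, against 16.2 and 14.8 over all occupied genes. Named are the 4 with the highest mean of both folds, an order that holds for neither list alone. Nubpl, an iron-sulfur protein needed for cluster insertion, had folds of 19.5 and 20.5. Ndufaf6 had 20.7 and 17.4. Ecsit had 13.9 and 23.6 at its finish, 351 and 150 bp downstream of the start of Zfp653. Timmdc1, a membrane-arm assembly factor, had 17.7 and 12. Ndufaf1, Ndufaf7 and Dmac1 were not occupied. Neighbours shared 8 of the 13 peaks, against 23.0% over all occupied genes.

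Of 24 genes of complexes II to IV 17 were occupied (70.8%, exact interval 48.9% to 87.4%), against 51.6% of all protein-coding genes. Median folds were 14.0 and 13.3 in these genes, against the same 16.2 and 14.8. Cyc1, a cytochrome of complex III, was highest with 26.8 and 32.2. Cox6a1, a cytochrome oxidase subunit, had 22.5 and 27.2. Ndufa4, once counted with complex I and now placed in cytochrome oxidase, had 20.2 and 23.6 at a peak shared with Phf14. These summits stood 6 and 5 bp downstream of the Phf14 start, and 385 and 384 bp upstream of the Ndufa4 start. Uqcrh, of complex III, had 18.7 and 18.2 beside Lrrc41. Its summits stood 276 and 265 bp downstream of the Lrrc41 start, and 475 and 464 bp upstream of the Uqcrh start. The medians of the complex I subunits, 11.8 and 8.05, were below those of both other lists, a difference that was not tested.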

How the data were processed

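Deaf1 ChIP and input chromatin of C2C12 cells were sequenced. The submitters' processing notes name BWA, MACS2 and build mm10; their versions, parameters and any control library are not given in the sources used. For each ChIP replicate the authors deposited 1 peak list, with a fold enrichment (a ratio), a −log10 p-value and a −log10 q-value per peak. The depth is unknown. Fragments over each summit and the background were recovered as the whole number that gives the deposited fold, with 1 added to both, and the deposited p under a Poisson model (largest misfit in −log10 p 4.07e-05 and 3.87e-05), a step tested on simulated data together with the occupancy rule. Intervals on folds are exact Poisson intervals at 95% of the fragment count with the background held fixed; all intervals cover counting error only.

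Gene spans and starts came from RefSeq tables of GRCm38.p6, the assembly of mm10. Where a window held several summits, the closest pair of the replicates was used, and for genes occupied at both ends the end of higher summed fold. All 35 subunits, 24 of 24 genes of complexes II to IV and 16 of 17 assembly factors matched by symbol. With 1 condition, and members and lists chosen with earlier results of these data known, no test was made: counts stand beside those of all protein-coding genes. Named genes were all subunits and the 4 highest of each other list by mean fold; the unoccupied assembly factors were named after their values were seen. Python 3.11.15, numpy 2.4.6, pandas 2.3.3 and scipy 1.17.1 were used. Sequence was limited to the RefSeq promoter windows, so motifs around summits outside them were not counted.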

Additional observations from a re-analysis of the deposited data

How the results depend on the processing

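No paired analysis was possible because the inputs gave no peak list to set beside the ChIP replicates. Requiring a fold of 10 or more, a rule added after seeing the data, left 4 subunit genes in place of 26, 5 assembly factors in place of 13, 10 genes of complexes II to IV in place of 17, and 1 matrix, 2 proximal and 1 distal arm genes. Over all protein-coding genes the same rule left 7748 in place of 11161, and the cause of the larger loss among subunit genes was not tested. Over the single replicates the matrix arm ran from 7 to 11 genes, the higher count with replicate 1. The other 11 alternatives left 22 to 31 subunit genes occupied, and the median folds were 12.1 to 12.4 in replicate 1 and 8.11 to 8.34 in replicate 2 with a fold of 5 or more, a −log10 q of 5 or more, or lists of equal length; they were not recomputed under the other rules. Alternatives for single arms were also added after seeing the data. Summits of 14 fragments, the fewest at an occupied subunit in replicate 2, give wide intervals, and peaks at the lowest background had at least 7 fragments there.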

Other observations

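Inside the gene bodies, more than 1 kb from either end, 8 of the 35 subunit genes had replicate 1 summits, 10 in number (22.9% of genes, against 43.3% of all protein-coding genes). Of these, 3 genes also had a replicate 2 summit (8.57% of the 35, against 24.4% of all protein-coding genes), and the subunit genes have shorter spans. In Ndufs7, which was not occupied at its ends, summits 1813 and 1787 bp before the higher end had folds of 10.2 in replicate 1 and 4.55 in replicate 2. Ndufv2 had folds of 8.62 and 5.37 at 7346 and 7336 bp inside its higher end, where transcription starts. Ndufv3, also not occupied at its ends, had 5.18 and 5.69 at 6106 and 6085 bp downstream of its lower end, and a further replicate 1 summit with a fold of 6.07.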
